A study of Mus musculus with 10 samples.

Results

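The Frizzled proteins are the cell-surface receptors of the Wnt ligands, and the mouse genome holds the 10 genes Fzd1 to Fzd10. All 10 were measured, by 26 probe sets that the platform annotation assigns to exactly 1 of these symbols, out of 18193 genes with 1 symbol and 45037 probe sets tested. RNA came from metanephric mesenchyme, the kidney tissue around the ureteric bud, taken at E11.5 of mouse development after enzymatic removal of the bud. There were 5 Wnt9b-/- pools (Wnt9b mutant) and 5 Wnt9b+/+ pools (wild type) from the same kind of cross, each of 25 to 30 mesenchymes on its own Affymetrix mouse genome array. The series' design text gives the control genotype as Wnt9b+/- instead, and the sample labels are followed here. The kind of Wnt9b allele and the probe summary method are not given in the sources used here.

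A Frizzled receptor binds the lipid-bearing Wnt ligand with an extracellular cysteine-rich domain and passes the signal to Dishevelled inside the cell. Together with the co-receptors Lrp5 or Lrp6 this stabilises beta-catenin, while with other partners it orients cells within a tissue plane, the branch called planar cell polarity. By sequence Fzd1, Fzd2 and Fzd7 are close relatives, as are Fzd5 with Fzd8, Fzd9 with Fzd10 and Fzd3 with Fzd6. In the kidney, Wnt9b from the bud acts on the neighbouring mesenchyme to maintain nephron progenitors and to start nephron formation.

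Promoter sequence is shown for Fzd1, Fzd7 and Fzd4, the members with the brightest probe sets among those that have an entry in the RefSeq promoter table. Fzd2 and Fzd3, brighter than Fzd4, have no entry. The table (RefSeq, build GRCm38.p6) matched 6 of the 10 members, Fzd1, Fzd4, Fzd5, Fzd7, Fzd9 and Fzd10. Each window runs from 250 bases before to 50 bases after the gene's start and is written 5′ to 3′ on the gene's strand. Capitals mark CTTTG or its reverse complement CAAAG, the core letters that TCF/LEF factors, the nuclear partners of beta-catenin, bind.
Fzd1 (chr5:4758167-4758466, minus strand): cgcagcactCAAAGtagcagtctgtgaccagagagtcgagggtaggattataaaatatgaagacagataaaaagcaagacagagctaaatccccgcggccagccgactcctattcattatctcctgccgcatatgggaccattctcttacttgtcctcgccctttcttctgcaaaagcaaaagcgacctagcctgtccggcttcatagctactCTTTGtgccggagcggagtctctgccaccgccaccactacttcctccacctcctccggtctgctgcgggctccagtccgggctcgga
Fzd7 (chr1:59481897-59482196, plus strand): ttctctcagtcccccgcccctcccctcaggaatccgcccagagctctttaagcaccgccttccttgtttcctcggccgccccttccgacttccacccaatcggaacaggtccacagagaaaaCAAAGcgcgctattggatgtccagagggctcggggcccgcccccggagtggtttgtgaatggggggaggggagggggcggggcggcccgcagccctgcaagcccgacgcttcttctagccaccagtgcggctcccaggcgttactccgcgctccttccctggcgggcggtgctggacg
Fzd4 (chr7:89404116-89404415, plus strand): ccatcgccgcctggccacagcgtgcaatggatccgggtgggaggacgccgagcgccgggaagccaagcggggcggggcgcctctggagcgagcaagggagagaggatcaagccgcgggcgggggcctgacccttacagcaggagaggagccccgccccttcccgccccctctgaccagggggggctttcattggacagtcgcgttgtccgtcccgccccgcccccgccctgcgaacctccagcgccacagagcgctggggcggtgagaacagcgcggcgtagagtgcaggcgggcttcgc
Fzd1 had 2 such matches, beginning 241 and 37 bases before the start, and Fzd7 had 1, beginning 128 bases before it. Fzd10 also had 1, while Fzd4, Fzd5 and Fzd9 had none in this window. The letters occurred in 3 of the 6 Frizzled windows and in 53.9% of all 32851 windows of the same length. The GC box GGGCGG or CCGCCC, the letters that Sp1-type factors bind, occurred in 5 of the 6 windows and in 35.7% of all windows, with Fzd1 the member that lacked it. GC content was 54.0% for Fzd1, 66.7% for Fzd7 and 72.7% for Fzd4, against a median of 52.7% over all windows.

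Facts of the whole set come first. Pairs of arrays correlated at 0.915 to 0.954. Values were used as log2(signal + 1), called log2 signal. A background was set on each array as the 95th percentile of 83 probe sets for odorant, vomeronasal and taste receptors, and lay between 6.09 and 6.80 log2 signal. Markers of the labelled tissue were present. Of nephron progenitor markers 7 of 8, and of renal stroma markers 6 of 6, were above background on all 10 arrays. So were 6 of 9 markers of ureteric bud epithelium and 3 of 4 measured markers of erythroid cells. The signals are therefore those of a mixed pool, and which of its cells carried each receptor was not tested. The progenitor regulator Six2 had a log2 signal of 9.79 in the mutant and 10.45 in wild type. Wnt9b, the targeted gene, was near background by its brighter probe set. Signals were 41.8 to 106 in mutant arrays and 78.2 to 99.7 in wild-type arrays (difference -0.24, SE 0.24, limma adjusted p = 0.996). The second Wnt9b probe set, below background on all arrays, read 6.39 to 49.1 in the mutant and 19.9 to 49.5 in wild type (difference -0.78, SE 0.58). No source used here places the Wnt9b probes inside or outside the sequence that the mutant lacks, so these values do not check the genotypes.

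Ordered by the log2 signal of their brightest probe sets, the receptors ran Fzd2, Fzd1, Fzd7, Fzd3, Fzd4, Fzd6, Fzd10, Fzd8, Fzd5 and Fzd9. The first 6 were above background on all 10 arrays. Their means over all arrays were 10.82 for Fzd2, 10.68 for Fzd1, 9.77 for Fzd7, 9.26 for Fzd3, 8.78 for Fzd4 and 7.39 for Fzd6. Fzd8 was above background on 7 arrays, Fzd10 on 6, Fzd5 on 2 and Fzd9 on none. The 3 brightest members were thus the close relatives Fzd2, Fzd1 and Fzd7.

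**Figure D1:**
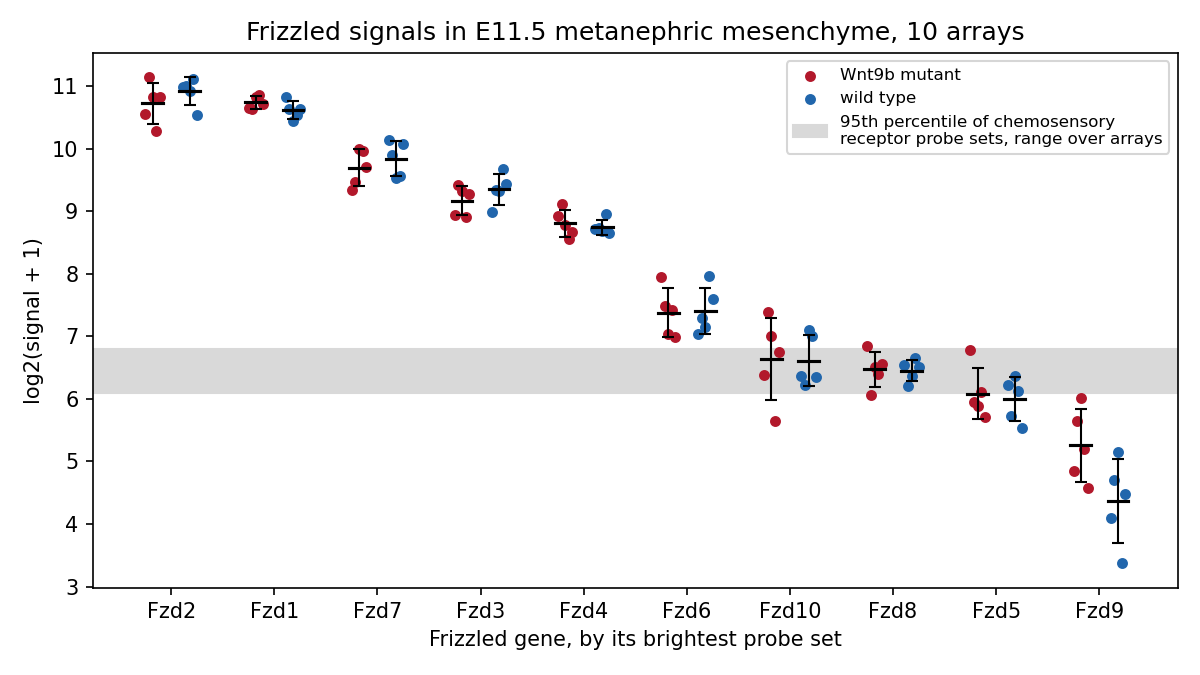
Log2(signal + 1) of each Frizzled gene's brightest probe set, with 1 point per array (5 Wnt9b mutant in red, 5 wild type in blue), black lines for mean ± SD and a grey band for the range of the array backgrounds. Fzd2 and Fzd1 lie highest near 10.7 in the mutant, 6 genes lie clear of the band, and the genotypes overlap for all 10 genes.

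The first 6 places of this order were nearly the same on each array. Fzd4 held the fifth place and Fzd6 the sixth on all 10 arrays. Fzd2 and Fzd1 changed places with each other, Fzd2 being brighter on 6 of 10 arrays, and their means differed by 0.14, less than the SD of Fzd2 in either genotype. In the mutant Fzd1 came first, at 10.74, with Fzd2 at 10.73. In wild type Fzd2 came first, at 10.92, with Fzd1 at 10.62. Fzd7 was brighter than Fzd3 on 9 of 10 arrays, the exception being wild-type replicate 4. The last places, of members not above background on every array, were less fixed. Fzd10 and Fzd8 changed places, Fzd10 being brighter on 6 arrays, with means 0.16 apart. Fzd10 came in place 9, below Fzd5, on mutant replicates 1 and 4. Fzd5 was above Fzd8 on wild-type replicate 3, and Fzd9 was above Fzd5 on mutant replicate 3.

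The order is one of signals and not of transcript numbers, because a probe set's brightness depends on its own probes as well as on the RNA. Probe sets of the same gene show how large this can be. The 6 probe sets of Fzd3 spanned 5.69 log2 units in mean signal, the 2 of Fzd10 spanned 4.43, the 2 of Fzd7 4.42, the 3 of Fzd4 4.33 and the 2 of Fzd1 2.64. The gap of 0.91 between the brightest probe sets of Fzd1 and Fzd7 was smaller than each of these. The 3 probe sets of Fzd2 were closest together, within 0.90. With the mean of all probe sets of a gene, Fzd2, Fzd1 and Fzd7 again came first, Fzd4 came before Fzd3, and Fzd10 came last.

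The genotypes were then compared with limma, which asks whether mesenchyme that lacked the bud's Wnt9b signal carried other levels of the receptors for it. None of the 10 genes was called at an adjusted p under 0.05, where 0.0055% of all genes were. At an unadjusted p under 0.05 there was 1 Frizzled gene of 10, the dim Fzd9, where 5.49% of all genes passed. No Frizzled gene, by its brightest probe set, had groups without overlap, as 1.21% of all genes did. The differences were split, 6 higher and 4 lower in the mutant, with a median of 0.02, the same as the 0.02 of all genes.

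Among the individual probe sets none of 26 was called, where 0.00444% of all probe sets were. At an unadjusted p under 0.05 there were 2 of 26 (7.69%), against 4.51% of all probe sets. The smallest adjusted p was 0.861. Of the 26 differences 12 were higher and 14 lower in the mutant, with a median of -0.03, against 0.01 for all probe sets.

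**Figure D2:**
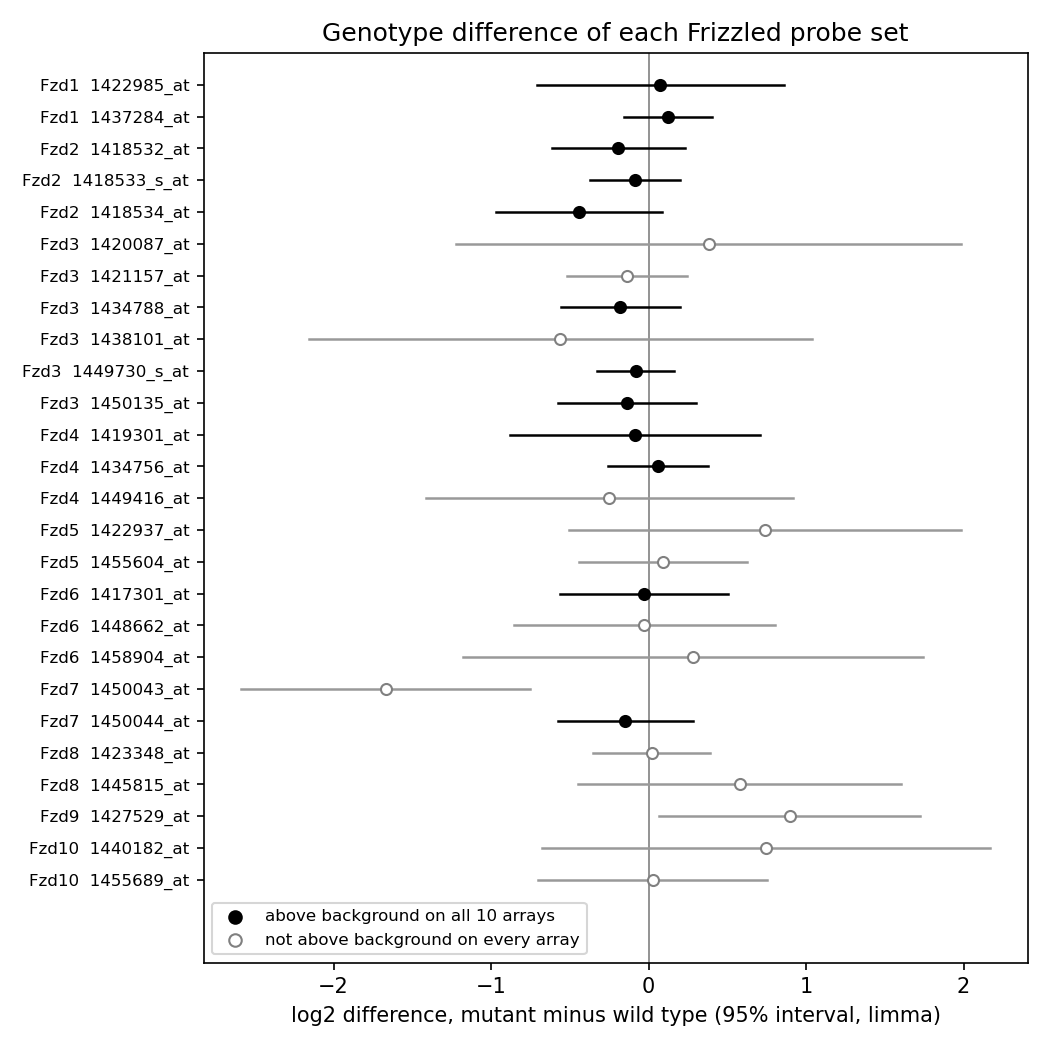
Difference in log2 signal, Wnt9b mutant minus wild type, for the 26 Frizzled probe sets with the 95% interval of the limma fit over all probe sets. Filled points were above background on all 10 arrays, open ones were not, and of all 26 intervals those of the dim Fzd7 and Fzd9 probe sets leave out 0.

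For the 6 members whose brightest probe set was above background on all arrays the intervals limit how large a difference could have been missed by that probe set. The differences lay between -0.19 and 0.12, and the 95% intervals between -0.59 and 0.49. These bounds correspond to signals in the mutant of 0.665 to 1.40 times the wild-type level. Over all 12 probe sets of these members that were above background on all arrays the intervals were wider, between -0.97 (Fzd2) and 0.86 (Fzd1), or 0.512 to 1.82 times the wild-type level. As the tissue was measured in bulk, fewer cells that carry a receptor and less RNA per cell cannot be told apart.

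Fzd2 acts in mouse together with Fzd1 in closing the palate and the ventricular septum, and together with Fzd7 in neural tube closure. By its brightest probe set it had signals of 1508, 2256, 1823, 1241 and 1808 in mutant arrays 1 to 5, against 2039, 2061, 1942, 2229 and 1483 in wild-type arrays 1 to 5. The groups overlapped, mutant replicate 2 being the highest array of all and mutant replicate 4 the lowest. The difference was -0.19 (95% interval -0.59 to 0.21, limma adjusted p = 0.992). All 3 of its probe sets were lower in the mutant. Its second probe set by mean signal, whose name carries the suffix for probes that match more than one transcript, differed by -0.09. The dimmest of them differed by -0.44, with signals of 575 to 1272 in the mutant and 958 to 1572 in wild type (limma adjusted p over all probe sets = 1.00). None of the 3 passed the test.

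Fzd1, its close relative, varied little between arrays by its brightest probe set. Signals were 1609, 1582, 1826, 1864 and 1682 in mutant arrays 1 to 5, and 1819, 1597, 1387, 1493 and 1590 in wild-type arrays 1 to 5. Wild-type replicates 1, 2 and 5 lay within the range of the mutant arrays, so the groups overlapped. The log2 signal averaged 10.74 ± 0.11 in the mutant and 10.62 ± 0.14 in wild type (SD, n = 5 each), a difference of 0.12 with a 95% interval from -0.12 to 0.36. Fzd1's second probe set, also above background on all arrays, varied more, with SDs of 0.32 in the mutant and 0.78 in wild type (log2 signal, n = 5 each), and differed by 0.08 (95% interval -0.71 to 0.86).

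Fzd7, the remaining relative, is the member whose 2 probe sets gave unlike results. By the bright one its signals were 645, 710, 1020, 1001 and 834 in mutant arrays 1 to 5, against 1130, 955, 736, 759 and 1075 in wild-type arrays 1 to 5. These groups overlapped widely, with a difference of -0.15 (95% interval -0.55 to 0.26, limma adjusted p = 0.999). By the dim one the signals were 10.9, 22.9, 38.6, 12.1 and 40.5 in the mutant arrays, against 108.8, 54.2, 54.2, 104.1 and 55.7 in the wild-type arrays. Here every mutant array lay below every wild-type array. Of the 26 Frizzled probe sets this was the one with no overlap between groups, where 0.888% of all probe sets had none.

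The dim Fzd7 probe set averaged 4.51 ± 0.85 in the mutant and 6.18 ± 0.52 in wild type (SD, n = 5 each), a log2 difference of -1.67 (SE 0.41, 95% interval -2.59 to -0.75). It did not pass over all probe sets, with a limma adjusted p of 0.861, and had an exact permutation p of 0.00794, the smallest that 5 arrays against 5 allow. It was the 1 Frizzled probe set of 26 with a permutation p under 0.05, where 4.76% of all probe sets had one. This probe set was above background on 2 arrays, wild-type replicates 1 and 4, and on no mutant array. Both Fzd7 probe sets are annotated to the same RefSeq transcript. The 95% interval of the bright one, -0.55 to 0.26, covers only what its own probes read. Why the 2 probe sets differ was not tested. With a pseudocount of 16 the dim difference was -1.17. Averaging both probe sets gave Fzd7 a difference of -0.91, with a limma adjusted p of 0.690. Markers of nephron progenitors were lower in the mutant in 8 of 8, with a median of -0.59 and none called. An unadjusted p under 0.05 was reached by 6 of the 8, where 5.49% of all genes passed. Groups did not overlap for 4 of the 8, as for 1.21% of all genes. Their summed signal was 3053 to 6034 in mutant arrays and 6243 to 8037 in wild-type arrays, and their part in the Fzd7 values was not tested.

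**Figure D3:**
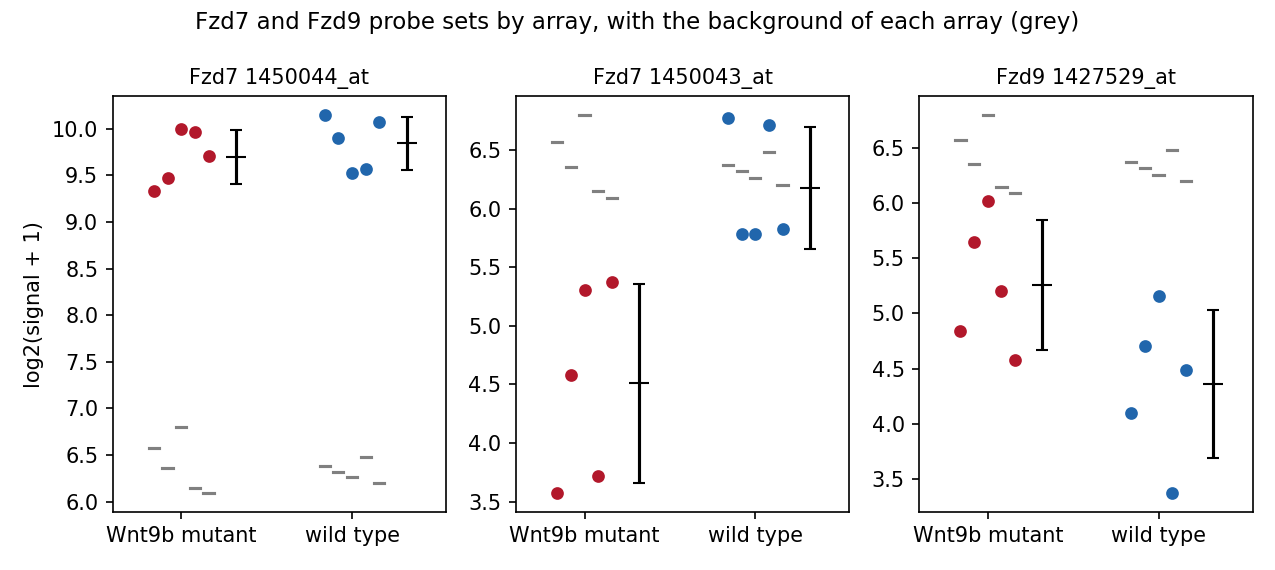
Log2(signal + 1) by array for the bright Fzd7 probe set (1450044_at), the dim Fzd7 probe set (1450043_at) and the Fzd9 probe set (1427529_at). Points are arrays, Wnt9b mutant in red and wild type in blue, grey dashes the background of that array and black bars mean ± SD. The dim Fzd7 values do not overlap between genotypes and lie below background except on wild-type replicates 1 and 4.

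Fzd3 and Fzd6 are receptors best known in mouse for planar cell polarity, Fzd3 in axon guidance and Fzd6 in hair patterning. Fzd3 had signals of 491, 682, 643, 477 and 616 in mutant arrays 1 to 5, against 507, 646, 638, 815 and 690 in wild-type arrays 1 to 5. The groups overlapped, with mutant replicate 4 lowest and wild-type replicate 4 highest. The difference was -0.18 (95% interval -0.53 to 0.18). Of the 6 probe sets of Fzd3, 5 were lower in the mutant, and the 3 above background on all arrays differed by -0.18, -0.14 and -0.08. Fzd6 ran from 126 to 246 in the mutant with a median of 171, against 131 to 248 with a median of 156 in wild type. Its difference was -0.03 (95% interval -0.55 to 0.49), and its other 2 probe sets, at or below background on nearly all arrays, gave -0.03 and 0.28.

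Fzd4 and Fzd8 are the receptors that mouse genetics has tied to growth of the ureteric bud, and Fzd4 is also the receptor for Norrin in blood vessels. Fzd4 signals were 484, 551, 439, 377 and 406 in mutant arrays 1 to 5, against 418, 423, 412, 496 and 401 in wild-type arrays 1 to 5. The wild-type values lay within the range of the mutant values. The difference was 0.06 (95% interval -0.22 to 0.35), and its other probe sets gave -0.08 and, below background, -0.25. Endothelial markers, which could carry Fzd4, were above background in 6 of 6 and were higher in the mutant in 6 of 6 (median 0.13), none with an unadjusted p under 0.05. They had summed signals of 2065 to 2785 in the mutant and 2107 to 2753 in wild type, and their part in the Fzd4 values was not tested. Fzd8 had signals of 65.8 to 113 in the mutant and 72.8 to 99.1 in wild type, around background, with a difference of 0.02 (95% interval -0.33 to 0.37).

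The remaining members were dim. Fzd5, a relative of Fzd8 that in mouse is needed for yolk sac vessels, had signals of 51.5 to 108 in the mutant and 45.2 to 81.5 in wild type (difference 0.09). Fzd10 had signals of 49.3 to 166 in the mutant and 73.9 to 136 in wild type (difference 0.03). Its neighbour, the long non-coding RNA gene Fzd10os, was near background as well, with a difference of -0.14 on the brighter of its 2 probe sets. The second probe sets of Fzd5, Fzd8 and Fzd10 were below background on all arrays and gave differences of 0.74, 0.58 and 0.75.

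Fzd9, whose loss in mouse affects bone and B cells, was the gene with the smallest unadjusted p of the family. Its signals were 27.7, 49.0, 64.0, 35.9 and 22.8 in mutant arrays 1 to 5, against 16.1, 25.0, 34.6, 9.35 and 21.4 in wild-type arrays 1 to 5. Mutant replicates 1 and 5 lay within the wild-type range. The log2 difference was 0.90 (95% interval 0.08 to 1.72, limma adjusted p = 0.880), with an exact permutation p of 0.0556. Every one of these values was below the background of its array, so it gives no measured level of the receptor. Taken separately, the 4 arrays rich in 18S signal (described next) gave 0.30 and the other 6 gave 1.30.

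A control probe set for 18S ribosomal RNA split the arrays widely. It read 1975 to 2587 on mutant replicates 4 and 5 and wild-type replicates 2 and 5, called high-18S here, and 92.4 to 322 on the other 6. Both sets hold equal numbers of each genotype. Of the 26 Frizzled probe sets 3 differed between these sets of arrays at an unadjusted p under 0.05, where 12.9% of all probe sets did. None of 26 was called, where 0.0178% of all were (smallest Frizzled limma adjusted p = 0.199). Fzd1's second probe set had log2 signals of 7.12 to 7.79 on the high-18S arrays and 8.03 to 8.87 on the others, a difference of -0.93 (95% interval -1.41 to -0.44). Fzd4's second probe set differed the other way, by 0.87 (95% interval 0.32 to 1.43), and so did Fzd2's dimmest, by 0.60 (95% interval 0.25 to 0.94).

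Within each genotype Fzd2's dimmest probe set read higher on the high-18S arrays than on the others, and the cause was not tested. Between genotypes it gave -0.31 on the high-18S arrays alone and -0.53 on the remaining 6, and over all arrays the genotypes overlapped. With the 18S set as a block the unadjusted limma p was 0.0170 against 0.0932 without, and the limma adjusted p was 0.913. That setting called 0 of all 45037 probe sets. The brightest probe sets of Fzd1 and Fzd2 moved less with the 18S set, by 0.06 and -0.27. For the dim Fzd7 probe set the high-18S arrays alone gave -1.26 and the remaining 6 gave -1.94.

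Genes that act around the Frizzled receptors were described in the same fit. Outside the family 78 of 80 listed genes were measured, 40 higher and 38 lower in the mutant, with a median of 0.01. None was called at an adjusted p under 0.05. At an unadjusted p under 0.05 there were 3 higher and 6 lower among the 78, where 5.49% of all genes passed. Groups did not overlap for 5 of the 78, 2 higher and 3 lower, where 1.21% of all genes had none.

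Ligands came first in this description. Of 19 Wnt genes, 5 were above background on all arrays, and the list was split 10 higher and 9 lower (median 0.01). Wnt4, the ligand of early nephron formation, had signals of 343, 270, 199, 186 and 253 in mutant arrays 1 to 5, against 493, 553, 558, 505 and 484 in wild-type arrays 1 to 5, without overlap (difference -1.08, SE 0.17, limma adjusted p = 0.283). It was called in a pair of alternatives, with a limma adjusted p of 0.0451 without the dimmest 40% of genes, where 6 of 10916 genes were called, and 0.0278 with trend and robust moderation, where 10 of 18193 were. Wnt2b differed by -0.65 below background on all arrays. The other ligands above background on all arrays were Wnt5a, Wnt6, Wnt7b and Wnt11, at 0.01, 0.05, 0.01 and 0.26.

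Of 10 co-receptors and receptor-complex proteins 8 were higher and 2 lower (median 0.09), with no unadjusted p under 0.05. The receptor tyrosine kinases Ror2 and Ror1, which bind Wnt5a, differed by -0.24 (95% interval -0.51 to 0.03) and 0.25 (95% interval -0.05 to 0.54). Lrp6, the co-receptor for beta-catenin signalling, differed by 0.06 (95% interval -0.21 to 0.33).

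Genes for turnover and maturation of Frizzled proteins were split 4 higher and 8 lower (median -0.08). Rspo3, a secreted R-spondin that keeps Frizzled on the surface by inhibiting the ligases Znrf3 and Rnf43, had signals of 898, 838, 750, 972 and 1120 in mutant arrays 1 to 5, against 582, 567, 626, 563 and 583 in wild-type arrays 1 to 5. All mutant arrays lay above all wild-type arrays (difference 0.64, SE 0.12, limma adjusted p = 0.391). Znrf3, a membrane ligase that removes Frizzled from the surface, differed by -0.45 (SE 0.21).

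Secreted proteins with a Frizzled-like cysteine-rich domain can bind Wnt ligands away from the receptor. Of 7 measured genes in that list, which includes the hedgehog transducer Smo, 4 were higher and 3 lower (median 0.05). Sfrp2 had signals of 2632, 2758, 2329, 3039 and 3143 in mutant arrays 1 to 5, against 2306, 2086, 1648, 1707 and 1427 in wild-type arrays 1 to 5. The lowest mutant array was just above the highest wild-type array (difference 0.61, SE 0.15, limma adjusted p = 0.538). Sfrp4 differed by -0.24, and Smo by 0.05.

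Below the receptor, the 12 genes of the Dishevelled list had a median of 0.01, with Dvl2 at 0.18 and Dvl1 at -0.12 nearest to a difference, neither with an unadjusted p under 0.05. The 8 planar cell polarity partners had a median of 0.01, with Prickle1, a cytoplasmic core protein, at 0.38 (SE 0.18) and the cadherin Celsr3, below background, at -0.65. Canonical Wnt target genes were lower in 8 of 10 measured members (median -0.25), and none was called. At an unadjusted p under 0.05 there were 4 lower and 1 higher, where 5.49% of all genes passed. The lower ones were Notum, Sp5, Lef1 and Myc, of which Lef1 was above background on 7 arrays. The higher one was the secreted Wnt inhibitor Wif1, below background (1.00). Notum, a secreted enzyme that inactivates Wnt ligands, had signals of 50.7 to 117 in the mutant and 133 to 195 in wild type, without overlap (difference -1.08, SE 0.21, limma adjusted p = 0.391). It was above background on all wild-type arrays but on 1 mutant array, so the size of that difference is not well measured. The nephron progenitor markers given above were lower in the mutant as well, and their part in the values of the target genes was not tested. Sp5, a target below background on all arrays, differed by -1.76.

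**Figure D4:**
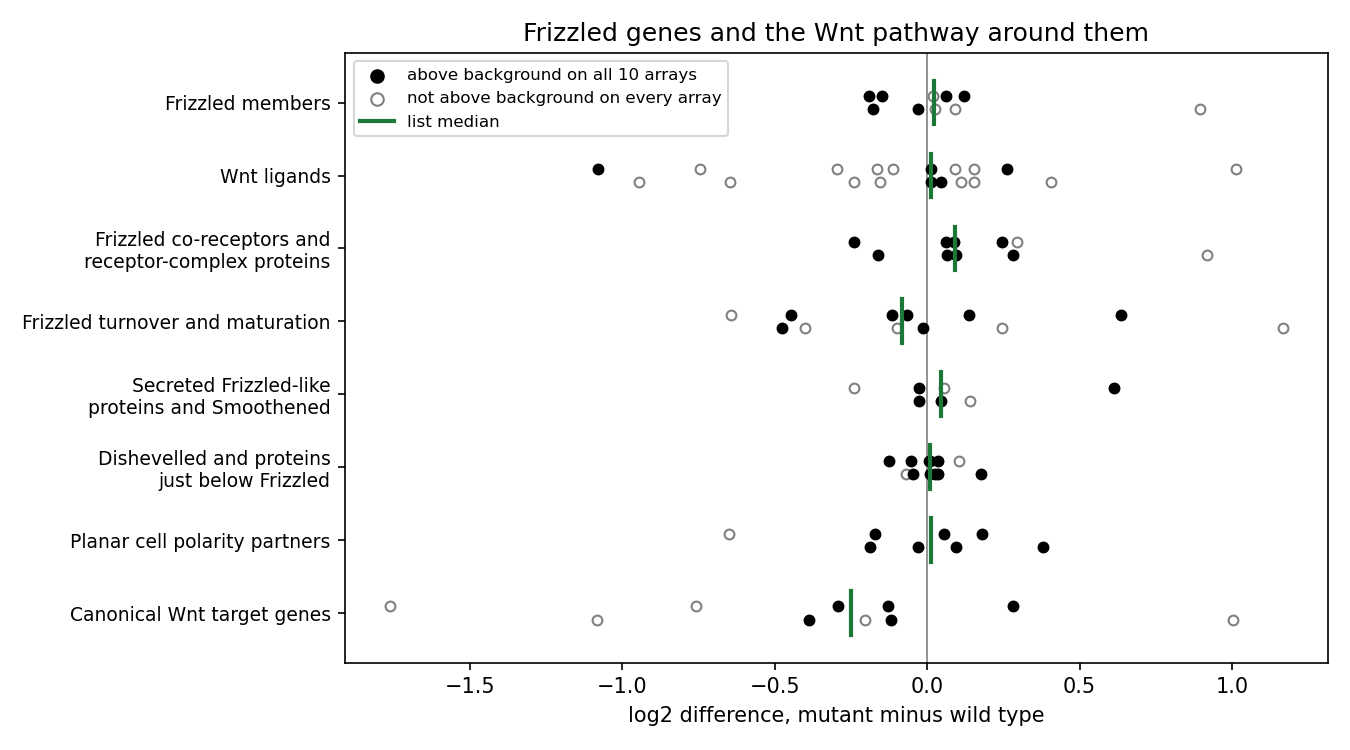
Difference in log2 signal, Wnt9b mutant minus wild type, for the genes of 8 lists around the Frizzled receptors, with 1 point per gene (filled where above background on all 10 arrays) and a green line for the list median. The Frizzled median is 0.02, the lowest median is that of canonical Wnt targets at -0.25, and the point farthest left among filled ligands is Wnt4 at -1.08.

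Genes with array profiles most like those of Fzd2 and Fzd9 were sought among genes of similar spread. Likeness was the root mean square difference of log2 signal over 10 arrays, after centring each gene on its mean. For Fzd2, the brightest member, the nearest of 3744 genes were D17H6S56E-5, Letm1 and Nr2f6, at 0.10, 0.12 and 0.12 log2 units, where the median gene was at 0.37. For Fzd9 the nearest of 163 were Trappc12, Depp1 and Cdr2l, at 0.31, 0.57 and 0.58, where the median was 1.03. As Fzd9 was below background on every array, these are likenesses to a background signal.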

How the data were processed

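The authors deposited intensity values, 1 linear signal per probe set, for the 10 arrays. Per the labels' protocols, 1 ug of total RNA per pool was turned into biotin-labelled cRNA with an amplification kit. Each array's mean after trimming 2% at each end was 250.0, so signals had been scaled before deposit, and no source used here names the summary algorithm. The number of arrays limits the precision. The labels call the pools distinct, and p-values measure the spread between them.

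The 64 control probe sets were left out of the tests. Of the others 34945 had 1 gene symbol, and 34741 of these were updated through RefSeq gene identifiers. Each gene took the values of its brightest probe set, by mean over all arrays. The fit used limma 3.58.1 under R 4.3.3 (lmFit, eBayes, two-sided, Benjamini-Hochberg over all 18193 genes or all 45037 probe sets, called at an adjusted p under 0.05). Intervals and p-values are from the gene fit for each gene's brightest probe set, and from the probe-set fit for others and in the plot of differences. The script was tested on simulated data with 200 changed genes of 18193. With a log2 change of 1 it recovered 145 of them and called 17 unchanged genes. With a log2 change of 2 it recovered 196 and called 10 unchanged genes. Exact permutation tests were two-sided.

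Members and lists were chosen with earlier results of these data known. Named genes were all members with every probe set, the 2 members of each pathway list with the smallest unadjusted p (none being called), the 3 profiles most like Fzd2 (brightest) and Fzd9 (smallest p) among genes above background with an SD within 20% of theirs, and Wnt9b. Other genes in the text, among them Six2, Lrp6, Lef1, Myc, Wif1, Smo, Fzd10os and further Wnt ligands, were chosen after their values were seen. The comparison of the 18S sets of arrays was also added then. Replicate numbers serve as names for arrays. Alternatives were the mean of probe sets, a filter on dim genes, other normalization, moderation, array weights, a pseudocount of 16, blocks for title wording and for the 18S set, each 18S set alone, exact permutation and leaving out each array. No title block holds arrays of both 18S sets, so the title and 18S alternatives are not independent of each other.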

Additional observations from a re-analysis of the deposited data

Results flagged for a closer look

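In each genotype and probe set of the Frizzled family the most distant array was set against the range of its group of 5. Of 52 such groups 3 were marked, where chance marks about 1 in 20, or 2.6 here. Mutant replicate 4 read 6.05 (log2 signal) for Fzd3 probe set 1421157_at, while the remaining mutant arrays lay between 6.65 and 6.80. Wild-type replicate 4 read 1.95 for Fzd3 probe set 1438101_at, which was below background, while its group otherwise lay between 3.92 and 4.56. The same array read 8.96 for Fzd4 probe set 1434756_at, the brightest of that gene, with the rest of its group between 8.65 and 8.73.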

How the results depend on the processing

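No Frizzled gene was called under any alternative run by limma, with 0 to 2 of 10 genes at an unadjusted p under 0.05. These alternatives called 0 to 10 of all genes tested. No Frizzled probe set was called by limma either, with 0 to 3 of 26 at that level, and 0 to 3 of all 45037 probe sets were called. In the main fit 5.49% of all genes and 4.51% of all probe sets had such an unadjusted p. Many alternatives called 0 of all genes or probe sets, so they could call no Frizzled member. The replicate block by shared title wording called 0 of all 18193 genes and 0 of all 45037 probe sets. The labels name no such batches. Mutant replicates 2 and 3 and wild-type replicates 1 and 3, whose titles share no wording of their own, were put in a block together. In that fit the dim Fzd7 probe set kept -1.67 with a limma adjusted p of 0.965. By exact permutation, unadjusted, 1 probe set of 26 passed, the dim one of Fzd7, where 4.76% of all probe sets did. Its difference ranged from -1.88 to -1.43 on leaving out single arrays. Of the surrounding pathway genes 1, Wnt4, was called without the dimmest 40% of genes (6 of all 10916 genes were) and 1, again Wnt4, with trend and robust moderation (10 of all 18193 were). With the mean of probe sets 3 members were above background on all arrays instead of 6. The order by signal was the same after quantile normalization.

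Signs turned for values that were not called, and the cause was not tested. Some were near 0 and others were not, among them probe sets of Fzd1, Fzd3, Fzd4 and Fzd6. With the mean of probe sets Fzd4 was at -0.091 and Fzd6 at 0.075, and with median centring Fzd8 was at -0.000336. Within the high-18S arrays Fzd4 was at -0.075 (its other probe sets at 0.085 and 0.53), Fzd10 at -0.091, Fzd3 probe set 1420087_at at -0.99 and Fzd6 probe set 1458904_at at -0.0089. Within the other arrays Fzd5 was at -0.035, Fzd6 at 0.11 (its probe set 1448662_at at 0.18), Fzd8 at -0.049 and Fzd3 probe set 1421157_at at 0.021. Fzd1 probe set 1422985_at was at -0.22 there, against 0.52 within the high-18S arrays. Leaving out single arrays gave -0.014 to 0.12 for Fzd4, -0.081 to 0.19 for Fzd5, -0.17 to 0.11 for Fzd6, -0.071 to 0.12 for Fzd8 and -0.16 to 0.27 for Fzd10. Among the dimmer probe sets it gave -0.14 to 0.29 for Fzd1 1422985_at, -0.00416 to 0.77 for Fzd3 1420087_at, -0.27 to 0.11 for Fzd4 1419301_at, -0.53 to 0.23 for Fzd4 1449416_at, -0.38 to 0.13 for Fzd6 1448662_at and -0.20 to 0.64 for Fzd6 1458904_at. Fzd1, Fzd2, Fzd3, Fzd7 and Fzd9 kept their sign under every alternative that tested them, but not their size. Leaving out single arrays gave 0.077 to 0.17 for Fzd1, -0.29 to -0.08 for Fzd2, -0.27 to -0.10 for Fzd3, -0.23 to -0.06 for Fzd7 and 0.65 to 1.09 for Fzd9. Signal over background limits the statements on Fzd5, Fzd8, Fzd9 and Fzd10.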
